A study of Mus musculus with 16 samples.

Results

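The 10 genes described here carry iron through the developing red cell: *Tfrc*, *Slc11a2*, *Steap3*, *Slc25a37*, *Ftl1*, *Fth1*, *Ncoa4*, *Slc40a1*, *Aco1* and *Ireb2*. They were picked by name for their roles in iron uptake, storage, release and sensing, by a rule that uses no measured value, though with earlier results of these data known, and each was found as 1 of the 46078 genes listed for every library. Bone marrow erythroblasts of steady-state mice had been sorted by Ter119 and CD44 into polychromatic (Poly-E) and the more mature orthochromatic (Ortho-E) cells, and RNA was counted per gene in 16 libraries. There were 4 *Ypel4*+/+ (wild-type) and 4 *Ypel4*-/- (homozygous mutant) libraries of each population. The strain label of all 16 libraries names the same line, with the mutations A<tm1Brd> and Ypel4<tm1a(EUCOMM)Wtsi> on C57BL/6N, and it is the genotype label that tells mutant from wild-type mice. The mutant is a conventional knockout with a trap allele, so *Ypel4* was disrupted in all cells and not in erythroblasts alone, and no treatment was given to these mice. The labels name neither age nor whether a library came from 1 mouse, so p-values measure the spread between these libraries.

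An erythroblast takes up most of its iron as transferrin bound to the transferrin receptor (*Tfrc*). In the endosome the iron is reduced by *Steap3* and leaves through the divalent metal transporter *Slc11a2*, and mitoferrin 1 (*Slc25a37*) carries it into the mitochondrion, where heme is made. Iron that is not used is held in ferritin, a shell of heavy (*Fth1*) and light (*Ftl1*) chains, from which *Ncoa4* returns it by carrying ferritin to the lysosome, while ferroportin (*Slc40a1*) exports iron from the cell. The iron regulatory proteins IRP1 (*Aco1*) and IRP2 (*Ireb2*) bind a stem-loop, the iron-responsive element (IRE), when iron is scarce. An IRE near the 5′ end of a transcript then blocks its translation, and IREs in the 3′ untranslated region of *Tfrc* protect that transcript from decay. Counts of RNA therefore bear on the second kind of control and do not show the first.

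IREs were looked for in annotated untranslated regions, on the strand of the transcript, as a C, any 5 bases, CAGTG and any 6 bases, with 5 base pairs (G-U pairs allowed) between the 5 bases before and the 5 bases after the 6-base loop. Such an element was present in 4 of the 10 genes, and in 160 of 21901 protein-coding genes (0.731%). The same letters without the pairing were present in 8 of the 10 genes and in 8988 (41.039%) of all, so that the pairing sets the search apart and not the letters. The elements are shown for their place in the transcript, which bears on the kind of control described above, with the CAGTG of the loop in capitals. Binding and control of these transcripts were not measured. They are given 5′ to 3′ on the transcript's strand, and positions are on GRCm38, in untranslated regions of GENCODE M21. *Tfrc* held 4 elements in its 3′ untranslated region (+ strand), and *Fth1* (+ strand), *Ftl1* (- strand) and *Slc40a1* (- strand) held 1 each in the 5′ untranslated region.
Tfrc, chr16:32631220-32631246: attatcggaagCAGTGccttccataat
Tfrc, chr16:32631599-32631625: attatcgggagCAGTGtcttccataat
Tfrc, chr16:32631664-32631690: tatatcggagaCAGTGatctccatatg
Tfrc, chr16:32631711-32631737: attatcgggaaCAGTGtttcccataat
Fth1, chr19:9982733-9982759: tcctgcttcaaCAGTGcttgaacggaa
Ftl1, chr7:45459780-45459806: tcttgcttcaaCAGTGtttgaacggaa
Slc40a1, chr1:45925466-45925492: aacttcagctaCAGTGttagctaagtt
The elements were present in 1 of 3 annotated protein-coding transcripts of *Tfrc* and 4 of 5 of *Fth1*. For *Ftl1* it was 1 of 2 and for *Slc40a1* 1 of 4. Counts per gene add all transcripts together, so the share of *Slc40a1* or *Ftl1* RNA that carries the element was not measured. A match is a description of these letters, and the absence of one, as in *Slc11a2*, says only that this pattern was not in the annotated regions.

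Depth ranged from 2670173 to 12451234 counts per library. No *Ypel4*-/- library reached the *Ypel4* level of a *Ypel4*+/+ library from the same population, with a log2 fold change of -5.18 (SE 0.238, edgeR adjusted p = 1.6e-06) for Poly-E, and -4.58 (SE 0.107, edgeR adjusted p = 5.69e-24) for Ortho-E. The erythroid marker list, of which 10 of 11 genes were found, summed to 55580-67990 CPM (counts per 1000000 counts, TMM-scaled) in Poly-E and to 227400-314600 in Ortho-E libraries. The 12 macrophage markers, which bear on *Slc40a1* because iron-recycling macrophages express it strongly, summed to 2.71-6.08 in Poly-E libraries and to 7.33-14.4 in Ortho-E libraries. All 12 had a count in each group. In Ortho-E 1 of the 8 tested was called higher in *Ypel4*+/+ mice and 5 of 10 in *Ypel4*-/- mice. Of all genes tested 26.4% and 29.5% were called higher, respectively. None of the macrophage markers was called between genotypes, and their part in any result was not tested. The granulocyte markers summed to 0.8745-4.657 CPM in Poly-E and to 1.713-18.2 CPM in Ortho-E libraries, and 7 or 8 of the 10 had a count in each group. The T lymphocyte markers reached at most 0.9 CPM. *Ly6g* and *Cd3e* were at 0 in every group. The 6 B lymphocyte markers summed to 26.32-55.28 CPM in Poly-E and to 38.83-81.89 CPM in Ortho-E libraries. The megakaryocyte markers summed to 26.7-35.6 CPM in Poly-E libraries and to 90-113 CPM in Ortho-E libraries, with *Gp1bb* at 0 in every group.

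Levels below are TMM-scaled CPM divided by the gene length in kilobases, which can be compared between genes. Fold changes are from edgeR's quasi-likelihood test with TMM, a scaling that centres on the bulk of genes. The TMM factors were 1.49 to 1.73 in Poly-E and 0.587 to 0.665 in Ortho-E libraries when both were fitted together, so the scaling matters for that comparison. The median log2 fold change of all genes, Ortho-E against Poly-E, was -0.19 with TMM and -1.45 with library totals in *Ypel4*+/+ mice, and -0.09 and -1.47 in *Ypel4*-/- mice. With TMM 3101 genes were called higher and 3773 lower in *Ypel4*+/+ mice, against 1217 and 7086 with totals, and in *Ypel4*-/- mice 3538 and 3767, against 1338 and 7288. Values on both scales are therefore given, the second as a share, in CPM of the library's total. In bulk samples fewer cells of a type and less RNA per cell cannot be told apart.

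The genes spanned more than 3 orders of magnitude in level. In *Ypel4*+/+ Poly-E cells *Fth1* stood highest, 11th among all genes at 2154 ± 429 (SD, n = 4), followed by *Slc25a37* at 943 ± 74.3 and *Ftl1* at 909 ± 190, which overlapped, and by *Tfrc* at 523 ± 27.3. *Ncoa4* at 49.7 ± 11.6 and *Slc11a2* at 31.4 ± 2.68 were next. *Slc40a1* at 9.96 ± 0.772, *Steap3* at 9.12 ± 1.56 and *Ireb2* at 8.81 ± 0.441 overlapped one another, and *Aco1* was lowest at 1.49 ± 0.245. In *Ypel4*+/+ Ortho-E cells *Slc25a37* (3154 ± 239) and *Fth1* (2616 ± 656) overlapped at the top, *Ftl1* (1875 ± 528) overlapped *Fth1*, and *Tfrc* (1327 ± 92.0) stood below them. The order below them was *Ncoa4*, *Slc11a2*, *Slc40a1*, *Ireb2*, *Steap3* and *Aco1*, with no overlap between neighbours. In *Ypel4*-/- mice the means had the same order, except that in Poly-E the overlapping pairs *Ftl1* and *Slc25a37*, and *Ireb2* and *Steap3*, changed places. There *Tfrc* was at 486 ± 25.0 and *Fth1* at 2101 ± 394 in Poly-E libraries, and their Ortho-E levels were 1248 ± 111 and 2373 ± 363. Together the 10 genes held 1.90% ± 0.105 of all Poly-E counts in *Ypel4*+/+ mice and 1.87% ± 0.0599 in *Ypel4*-/- mice. Their share of Ortho-E counts was 2.13% ± 0.0956 and 2.20% ± 0.0440, respectively (SD, n = 4 each).

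**Figure D1:**
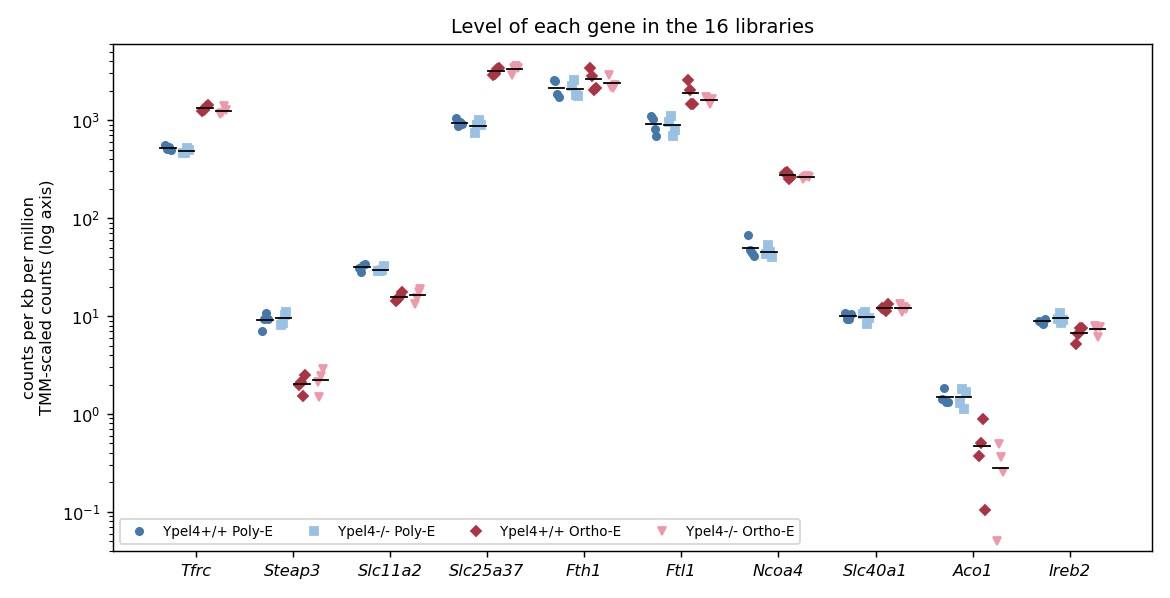
Level of each of the 10 genes in all 16 libraries, in TMM-scaled CPM per kilobase on a log axis, by population and genotype, with the group mean as a bar. *Fth1*, *Slc25a37*, *Ftl1* and *Tfrc* stand above the other 6 genes in every group, the genotypes overlap, and the *Ypel4*-/- Ortho-E library with 0 counts of *Aco1* is drawn at the lower edge.

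Ortho-E and Poly-E cells of the same genotype were compared to see how the iron genes differ between successive stages. On the TMM scale *Ncoa4*, *Slc25a37*, *Tfrc* and *Ftl1* rose strongly and *Slc40a1* modestly, and *Steap3*, *Slc11a2* and *Aco1* fell, in both genotypes. *Ireb2* fell in *Ypel4*+/+ mice, and *Fth1* was called higher in *Ypel4*-/- mice alone, a difference between genotypes that the interaction test did not call. With library totals *Ncoa4* and *Slc25a37* still rose and *Steap3*, *Slc11a2*, *Aco1* and *Ireb2* fell, whereas *Tfrc* did not pass the test and *Fth1*, *Ftl1* and *Slc40a1* turned to lower values. The count on the TMM scale was 9 of 10 in each genotype (5 higher and 4 lower in *Ypel4*+/+, 6 higher and 3 lower in *Ypel4*-/-), where 58.5% of 11747 genes tested (26.4% higher, 32.1% lower) and 61% of 11973 (29.5% higher, 31.5% lower) were called. With library totals 2 of the 10 were called higher and 6 lower in *Ypel4*+/+ mice, beside 10.4% and 60.3% of all genes (70.7% together), and 2 and 7 in *Ypel4*-/- mice, beside 11.2% and 60.9% (72.0% together). Libraries of both populations share a further number in the deposited names, read here as the mouse, and with it as a block no call was lost and *Fth1* was added in *Ypel4*+/+ mice.

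*Tfrc* (ENSMUSG00000022797, chr16:32608920-32632794, + strand) was at levels of 559, 506, 530 and 498 in the *Ypel4*+/+ Poly-E libraries and at 1242, 1257, 1378 and 1431 in *Ypel4*+/+ Ortho-E. In *Ypel4*-/- mice the levels were 467, 465, 518 and 494 in Poly-E libraries and 1147, 1177, 1391 and 1277 in Ortho-E. Every Ortho-E library stood above every Poly-E library of its genotype. The log2 fold change was 1.38 (SE 0.116, edgeR adjusted p = 7.13e-11) in *Ypel4*+/+ and 1.53 (SE 0.110, adjusted p = 4.85e-14) in *Ypel4*-/- mice, but only 0.10 (adjusted p = 0.384) and 0.11 (adjusted p = 0.267) with library totals. As a share, *Tfrc* took 4798-5005 CPM in *Ypel4*+/+ Poly-E and 4658-5678 in *Ypel4*+/+ Ortho-E, which overlap. The share of the transferrin receptor transcript thus overlapped between the populations, while most genes called with library totals held a smaller share in Ortho-E.

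*Steap3* (ENSMUSG00000026389, chr1:120190757-120272705, - strand), the endosomal ferrireductase, went the other way. Its levels were 7.07, 9.25, 10.9 and 9.31 in *Ypel4*+/+ Poly-E libraries and 2.00, 2.10, 1.52 and 2.49 in *Ypel4*+/+ Ortho-E. In *Ypel4*-/- mice they were 8.07, 8.47, 10.3 and 10.9, and 2.13, 1.49, 2.42 and 2.87. The groups did not overlap, and the log2 fold change was -2.13 (SE 0.179, edgeR adjusted p = 6.52e-11) in *Ypel4*+/+ and -1.91 (SE 0.174, adjusted p = 1.74e-11) in *Ypel4*-/- mice, with -3.42 and -3.31 on library totals. *Slc11a2* (ENSMUSG00000023030, chr15:100387898-100425072, - strand), which lets the reduced iron out of the endosome, fell from 31.4 ± 2.68 to 15.7 ± 1.42 in wild-type mice (log2 fold change -0.97, SE 0.122, edgeR adjusted p = 1.11e-07) and from 29.8 ± 1.86 to 16.3 ± 2.47 in *Ypel4*-/- mice (-0.71, SE 0.125, adjusted p = 8.29e-06; SD, n = 4). Its lowest Poly-E library, at 28.0, lay above its highest Ortho-E library, at 18.8. In each of the 4 groups replicates 1 and 2 of *Slc11a2* lay below replicates 3 and 4, as for 3.38% of all genes. The receptor and the endosomal genes that act after it therefore moved in opposite directions on the TMM scale, and on library totals *Steap3* and *Slc11a2* fell while *Tfrc* was not called.

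*Slc25a37* (ENSMUSG00000034248, chr14:69241848-69285112, - strand), the mitoferrin of erythroid cells, was at 1041, 866, 951 and 912 in *Ypel4*+/+ Poly-E and at 2911, 2989, 3326 and 3389 in *Ypel4*+/+ Ortho-E. The *Ypel4*-/- levels were 740, 892, 1006 and 885, and 2889, 3374, 3539 and 3412. All Ortho-E libraries exceeded all Poly-E libraries on this scale. The log2 fold change was 1.78 (SE 0.120, edgeR adjusted p = 9.81e-13) in *Ypel4*+/+ and 2.08 (SE 0.115, adjusted p = 5.98e-17) in *Ypel4*-/- mice, and 0.50 and 0.66 on library totals. Its mean share in wild-type mice was 0.857% of all Poly-E and 1.21% of all Ortho-E counts, and in the mutants it was 0.831% and 1.31%. *Slc25a28*, the mitoferrin of other tissues, fell at the same time, from 313 counts over 4 libraries to 24 in *Ypel4*+/+ mice (log2 fold change -1.95, edgeR adjusted p = 5.82e-06).

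*Fth1* (ENSMUSG00000024661, chr19:9982703-9985092, + strand), the ferritin heavy chain, was at 2546, 2496, 1866 and 1707 in *Ypel4*+/+ Poly-E and at 3435, 2855, 2055 and 2118 in *Ypel4*+/+ Ortho-E. In *Ypel4*-/- mice it was at 2254, 2587, 1814 and 1750, and at 2908, 2174, 2123 and 2289. The populations overlapped in both genotypes, and in 3 of the 4 groups replicates 1 and 2 lay above replicates 3 and 4, by 1.15-fold to 1.51-fold in the mean over the 4 groups. Of all genes 0.488% were higher in that pair in all 4 groups, a stricter rule that *Fth1* did not meet. The share of genes that did so in 3 groups was not taken. In *Ypel4*+/+ mice the log2 fold change was 0.31 (95% interval -0.045 to 0.67, edgeR adjusted p = 0.125), and 0.30 (adjusted p = 0.00101) with the replicate number as a block. In *Ypel4*-/- mice it was 0.36 (SE 0.129, adjusted p = 0.0165), a call that was lost when *Ypel4*-/- Ortho-E replicate 1 (0.19, adjusted p = 0.208), 2 (0.0507) or 4 (0.0568) or Poly-E replicate 3 (0.0648) was left out. With library totals *Fth1* turned to -0.97 and -1.06, and its share was lower in Ortho-E, at 1135-1803 against 2303-3335 CPM in *Ypel4*+/+ mice.

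*Ftl1* (ENSMUSG00000050708, chr7:45457944-45459884, - strand), the light chain, was at 1110, 1020, 813 and 694 in *Ypel4*+/+ Poly-E and at 2560, 2021, 1466 and 1453 in *Ypel4*+/+ Ortho-E. In *Ypel4*-/- mice it was at 965, 1102, 694 and 788, and at 1732, 1641, 1453 and 1660. No Ortho-E library fell within the Poly-E range. The log2 fold change was 1.08 (SE 0.195, edgeR adjusted p = 0.000234) in *Ypel4*+/+ and 1.05 (SE 0.126, adjusted p = 7.07e-09) in *Ypel4*-/- mice, and turned to -0.21 (adjusted p = 0.310) and -0.37 (adjusted p = 0.0125) with library totals. *Ftl1* has 5 listed near-identical copies (at least 95% identity over 150 bases), which held 820 counts against 141160 of *Ftl1* over the 16 libraries, or 0.581%. *Fth1* had no such copy, and reads that mapped to several places had been left out of the counts, so the level of *Ftl1* may lack reads that that of *Fth1* keeps.

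*Ncoa4* (ENSMUSG00000056234, chr14:32159865-32179855, + strand), the ferritin receptor of autophagy, rose most of the 10 genes in fold. It was at 66.7, 46.9, 44.4 and 40.8 in *Ypel4*+/+ Poly-E and at 289, 294, 252 and 265 in *Ypel4*+/+ Ortho-E. Levels in *Ypel4*-/- mice were 42.6, 53.5, 45.5 and 40.1, and 249, 266, 271 and 263. The lowest Ortho-E library stood well above the highest Poly-E library, and the log2 fold change was 2.50 (SE 0.145, edgeR adjusted p = 4.73e-14) in *Ypel4*+/+ and 2.71 (SE 0.121, adjusted p = 2.26e-19) in *Ypel4*-/- mice, with 1.23 and 1.29 on library totals. A near-identical copy, *Gm6768*, held 6.305% as many counts as *Ncoa4* and rose by 2.63 and 2.66 on the log2 scale, so that a small part of either value may belong to the other. *Slc40a1* (ENSMUSG00000025993, chr1:45908068-45926523, - strand), the iron exporter, was at 9.96 ± 0.772 and 12.0 ± 0.838 in *Ypel4*+/+ and at 9.79 ± 1.11 and 12.1 ± 0.891 in *Ypel4*-/- mice (SD, n = 4). It was called higher at 0.31 (SE 0.121, adjusted p = 0.0304) and 0.48 (SE 0.127, adjusted p = 0.00139), and lower at -0.97 and -0.94 with library totals. Without *Ypel4*+/+ Ortho-E replicate 4 the former gave an adjusted p of 0.0653.

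Both iron regulatory proteins were lowly expressed, and *Ireb2* was the more abundant in every library. *Aco1* (ENSMUSG00000028405, chr4:40143081-40198338, + strand) had 36, 43, 91 and 69 counts in *Ypel4*+/+ Poly-E libraries and 4, 4, 12 and 2 in *Ypel4*+/+ Ortho-E. The *Ypel4*-/- libraries had 38, 40, 37 and 147, and 0, 6, 5 and 6. It fell by 1.70 (SE 0.384, edgeR adjusted p = 0.000425) and by 2.21 (SE 0.384, adjusted p = 6.94e-06) on the log2 scale, and these few counts in Ortho-E limit how well its fold is known. *Ireb2* (ENSMUSG00000032293, chr9:54863755-54912534, + strand) was at 8.81 ± 0.441 and 6.70 ± 1.11 in *Ypel4*+/+ and at 9.49 ± 0.932 and 7.31 ± 0.769 in *Ypel4*-/- mice. Its log2 fold change was -0.35 (SE 0.142, adjusted p = 0.0374) in *Ypel4*+/+ mice, where the call was lost without any 1 of 6 of the 8 libraries (adjusted p up to 0.261), and -0.21 (95% interval -0.487 to 0.0722, adjusted p = 0.195) in *Ypel4*-/- mice. On library totals *Ireb2* was called lower in both, at -1.63 and -1.62.

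**Figure D2:**
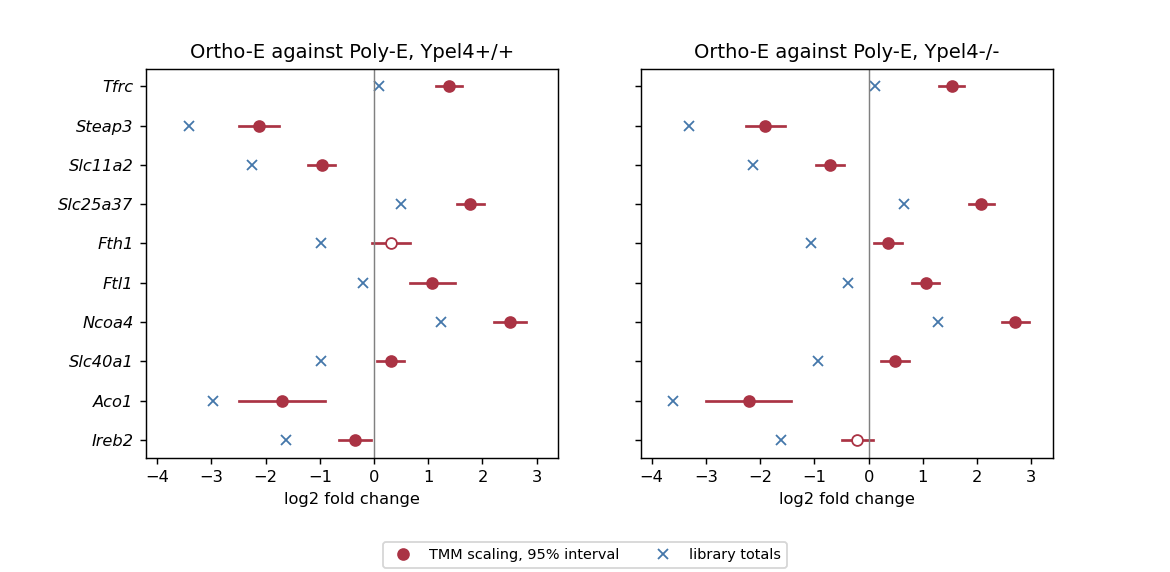
Log2 fold change of each gene, Ortho-E against Poly-E, in both genotypes, with TMM and with library totals as the scaling. *Ncoa4* and *Slc25a37* lie above 0 and *Steap3*, *Slc11a2*, *Aco1* and *Ireb2* below 0 on both scales, whereas *Tfrc* is near 0.1 and *Fth1*, *Ftl1* and *Slc40a1* are below 0 with library totals alone.

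Ratios between genes of the same library do not depend on the scaling. Means of ratios are geometric. Of 5 ratios formed per length, each differed between Poly-E and Ortho-E without overlap in both genotypes, at the smallest p that 4 against 4 libraries allow (exact permutation test, two-sided, p = 0.029). Adjusted over the 20 ratio comparisons these p-values became 0.052 (Benjamini-Hochberg), so none passed the threshold of 0.05. The test took the libraries as independent and did not pair Poly-E and Ortho-E libraries that share the number read as the mouse. *Ftl1* to *Fth1* was 0.436, 0.409, 0.436 and 0.406 in *Ypel4*+/+ Poly-E libraries and 0.745, 0.708, 0.713 and 0.686 in *Ypel4*+/+ Ortho-E, and 0.382-0.450 and 0.596-0.754 in *Ypel4*-/- mice. The light chain level was thus below the heavy chain level in all libraries and closer to it in Ortho-E, as counted without the reads that *Ftl1* may share with its copies. *Tfrc* to *Fth1*, which sets the uptake transcript beside the storage transcript, had Poly-E and Ortho-E means of 0.247 and 0.518 in *Ypel4*+/+ mice, and of 0.234 and 0.529 in *Ypel4*-/- mice. *Slc25a37* to *Slc25a28* had a mean of 174 and 2274 in *Ypel4*+/+ and of 188 and 2086 in *Ypel4*-/- mice. *Ireb2* to *Aco1* had a mean of 5.91 and 16.1, and 6.46 and 31.2, which in Ortho-E rests on the 0 to 12 counts of *Aco1*.

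*Tfrc* to *Slc25a37*, the receptor beside the mitochondrial carrier, was lower in Ortho-E than in Poly-E, with means of 0.556 and 0.421 in *Ypel4*+/+ and of 0.555 and 0.378 in *Ypel4*-/- mice. It was also the only one of the 5 ratios without overlap between genotypes. In Ortho-E it was 0.427, 0.421, 0.414 and 0.422 in *Ypel4*+/+ and 0.397, 0.349, 0.393 and 0.374 in *Ypel4*-/- libraries, a log2 difference of -0.16 (exact permutation test, p = 0.029, adjusted p = 0.052). That adjustment covered all 20 ratio comparisons, and the 10 between populations were all at the smallest p. Of the 10 between genotypes only 1 was, and no adjustment over those alone was made. In Poly-E the log2 difference was -0.003 (exact permutation test, p = 0.971), and whether the populations differ in this was not tested. The other genotype comparisons of the ratios had p-values of 0.40 or more (exact permutation test).

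**Figure D3:**
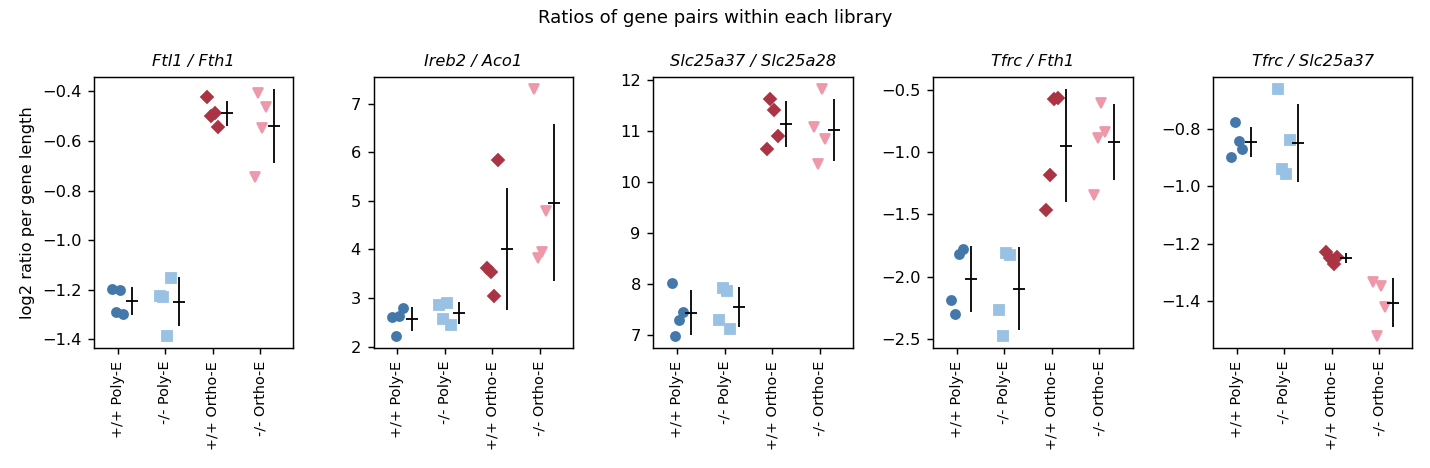
The 5 ratios between genes of the same library, per length and on a log axis, in each of the 16 libraries by group. Each ratio separates Ortho-E from Poly-E, and *Tfrc* to *Slc25a37* in Ortho-E lies at 0.349-0.397 in *Ypel4*-/- and, without overlap, at 0.414-0.427 in *Ypel4*+/+ libraries.

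*Ypel4*-/- and *Ypel4*+/+ mice were compared within each population to ask whether loss of *Ypel4* alters the iron genes. None of the 10 genes was called in Poly-E, where 1 of 12395 genes was (0.00807%, *Ypel4* itself). None was called in Ortho-E either, where 3 of 10521 were (0.0285%, with 0.0095% higher and 0.019% lower), namely *Ypel4*, *Gm19426* and *En2*. The paper attributes *En2* to the splice acceptor of the gene trap, and its figure for genes it considered false positives shows *Gm19426*. None of the 10 genes had an unadjusted p under 0.05 in edgeR. Among all genes tested, 271 of 12395 were under it for Poly-E cells. For Ortho-E cells the number was 387 of 10521. At such rates few or none of 10 genes would be under 0.05, so this count does not set the iron genes apart. DESeq2 called none of the 10 genes either, and for Poly-E cells it called 2 genes in all. In Poly-E the log2 fold changes ran from -0.13 for *Ncoa4* (95% interval -0.420 to 0.166) to 0.11 for *Ireb2* (-0.117 to 0.332). In Ortho-E *Tfrc* was at -0.07 (-0.241 to 0.103), *Slc25a37* at 0.09 (-0.0816 to 0.255) and *Ncoa4* at -0.05 (-0.242 to 0.146). The ferritin genes were known less closely, with *Fth1* at -0.12 (-0.633 to 0.392) and *Ftl1* at -0.19 (-0.686 to 0.298). Leaving out *Aco1*, all intervals of the other 9 genes lay within -0.420 and 0.333 in Poly-E and within -0.686 and 0.620 in Ortho-E. *Aco1*, at -0.62 (-1.94 to 0.695) in Ortho-E, could differ by more than 2-fold without being detected at this depth.

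The difference of the genotype effect between the populations (interaction) was likewise not called for any of the 10 genes, and for 0 of 13318 genes (0.0%) with edgeR, of which 363 had an unadjusted p under 0.05 and 1 was called by DESeq2. Its values ran from -0.61 for *Aco1* (95% interval -1.84 to 0.614) to 0.17 for *Slc25a37* (-0.153 to 0.484). The lowest adjusted p of any of the 10 genes under any alternative was 0.812 in Poly-E, 0.603 in Ortho-E and 0.925 for the interaction. The 6 B lymphocyte markers summed to 38.8-53.7 CPM in *Ypel4*+/+ and, without overlap, to 59.5-81.9 CPM in *Ypel4*-/- Ortho-E libraries, and the T lymphocyte markers to 0 and to 0.329-0.9 CPM. In Poly-E libraries the B lymphocyte markers overlapped, at 26.32-38.44 CPM in *Ypel4*+/+ and 33.25-55.28 CPM in *Ypel4*-/- mice. The T lymphocyte markers summed there to 0.174-0.359 CPM in *Ypel4*+/+ and, without overlap, to 0.405-0.761 CPM in *Ypel4*-/- mice. The part of these markers in the values above was not tested.

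**Figure D4:**
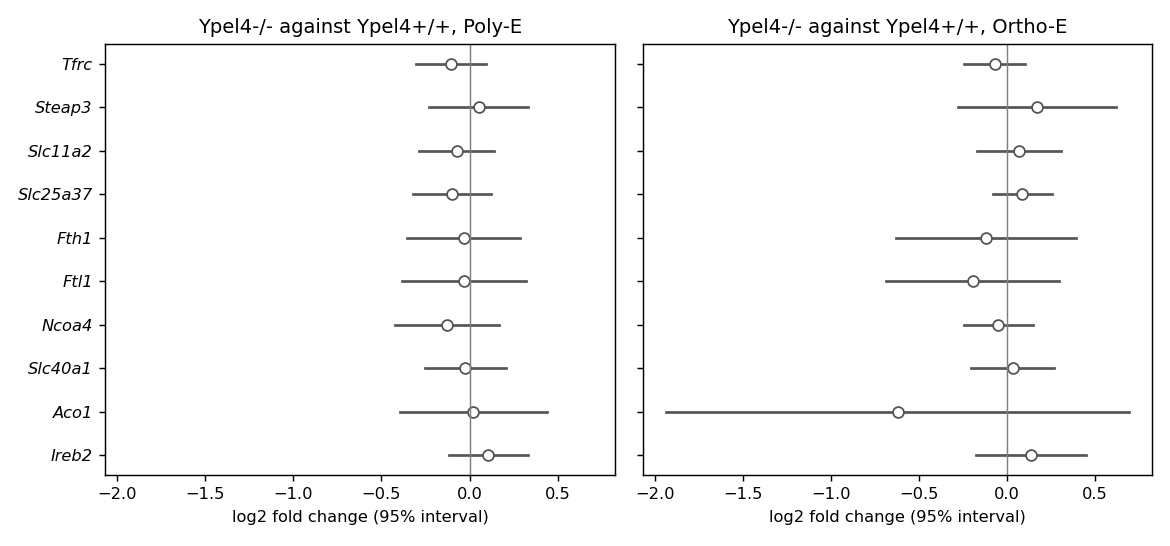
Log2 fold change of each gene, *Ypel4*-/- against *Ypel4*+/+, for Poly-E and Ortho-E, with 95% intervals. All intervals include 0, those of *Tfrc*, *Slc25a37* and *Ncoa4* are among the narrow ones, and that of *Aco1* in Ortho-E is the widest (-1.94 to 0.695).

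The pathway around the 10 genes was read from 53 further genes in 8 lists, of which 35 had enough counts in both population comparisons. In *Ypel4*+/+ mice 13 of the 35 were called higher and 15 lower in Ortho-E on the TMM scale, with a median log2 fold change of -0.11 against -0.19 for all genes, of which 26.4% were called higher and 32.1% lower. In *Ypel4*-/- mice 16 were higher and 13 lower, with a median of 0.16 against -0.09 for all genes, of which 29.5% were called higher and 31.5% lower. Library totals lower the log2 fold change by a nearly constant amount (1.27 to 1.42 for the 10 genes). By that scaling alone, all genes called lower also held a smaller share of the library totals. Of those called higher, 7 of the 13 and 8 of the 16 held a larger mean share, which was not tested. No gene of the lists was called between genotypes.

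Of the transferrin cycle and endosome list, 4 of 5 tested genes fell in each genotype (beside 32.1% and 31.5% of all genes), among them *Tfr2*, the second transferrin receptor (-0.52, edgeR adjusted p = 0.0077 in *Ypel4*+/+), and *Vps35*, a subunit of the retromer that recycles receptors (-1.47, edgeR adjusted p = 1.68e-10). *Mcoln1*, a lysosomal cation channel, was at -0.11 in *Ypel4*+/+ and was called higher at 0.36 in *Ypel4*-/- mice, with a smaller share in Ortho-E in both. Of 13 genes of mitochondrial iron use and iron-sulfur cluster assembly, 8 rose and 3 fell in *Ypel4*+/+ and 8 rose and 2 fell in *Ypel4*-/- mice, with 5 of the 8 also larger in share. Of all genes 26.4% and 29.5% were called higher and 32.1% and 31.5% lower with TMM. The larger share is a comparison of means without a test. How many of all genes called higher also held a larger share was not taken. The scaffold *Iscu* went from 28.4 ± 3.21 to 208 ± 13.6 in *Ypel4*+/+ mice (2.91, edgeR adjusted p = 8.31e-16). Genes of this list thus changed in both directions, with *Slc25a28*, described above, among those that fell.

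Of 7 genes for the turnover of iron regulatory proteins and for iron chaperones, 4 fell and 2 were called higher in each genotype, neither of these with a larger share (of all genes 32.1% and 31.5% were called lower and 26.4% and 29.5% higher). *Fbxl5*, the iron-sensing adaptor that targets IRP2 for degradation, fell by 1.26 (edgeR adjusted p = 0.000292) on the log2 scale in *Ypel4*+/+ mice, and its scaffold *Cul1* by 2.00 (adjusted p = 1.2e-12). *Skp1a*, the linker of that ligase, was called higher at 1.06 with TMM but held a smaller share (-0.23 on the log2 scale). *Alas2*, the first enzyme of erythroid heme synthesis, also has an IRE in the 5′ untranslated region, and its element is shown for comparison with those above.
Alas2, chrX:150547459-150547485, + strand: tggttcgtcctCAGTGcagggcaacag
*Alas2* rose from 1482 ± 279 to 7321 ± 653 in *Ypel4*+/+ mice (2.34, SE 0.138, edgeR adjusted p = 7.43e-14), and its share of the library totals was also larger in Ortho-E.

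Of 4 tested genes of export and heme iron, 2 rose in each genotype, and 1 fell in *Ypel4*+/+ mice. Of all genes 26.4% and 29.5% were called higher and 32.1% and 31.5% lower. Among the 2 was the heme transporter *Slc48a1* (2.53 in *Ypel4*+/+ and 2.72 in *Ypel4*-/- mice). It alone of the 2 also held a larger mean share, and the other had 48 to 86 counts a group. Among other importers *Slc39a8* fell (-0.88 and -1.77), at 28 counts over the 4 Ortho-E libraries of either genotype. *Fam132b*, the hormone erythroferrone by which erythroblasts lower hepcidin, fell from 212 counts over 4 libraries to 16 in *Ypel4*+/+ mice (-1.91, edgeR adjusted p = 0.00023) and from 273 to 15 in *Ypel4*-/- mice (-2.54, adjusted p = 1.21e-07). *Tmprss6*, a protease that curbs hepcidin signalling in liver, had a value of 0.22 in *Ypel4*+/+ mice and was called higher at 0.96 in *Ypel4*-/- mice, at 22 to 65 counts a group and with a smaller share in Ortho-E. *Ftl2*, one of the near-identical copies of *Ftl1*, so that its few counts may belong to *Ftl1*, had 12 to 23 counts a group, with 1.64 (edgeR adjusted p = 0.077) and 2.53 (adjusted p = 0.00073), and *Fth-ps2* and *Fthl17* had 10 and 0 counts over all libraries. There were 17 genes with too few counts to test in any comparison, each with at most 7 over the 16 libraries, among them *Hamp*, *Cp*, *Heph*, *Hfe*, *Cybrd1*, *Steap4* and *Epas1*.

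**Figure D5:**
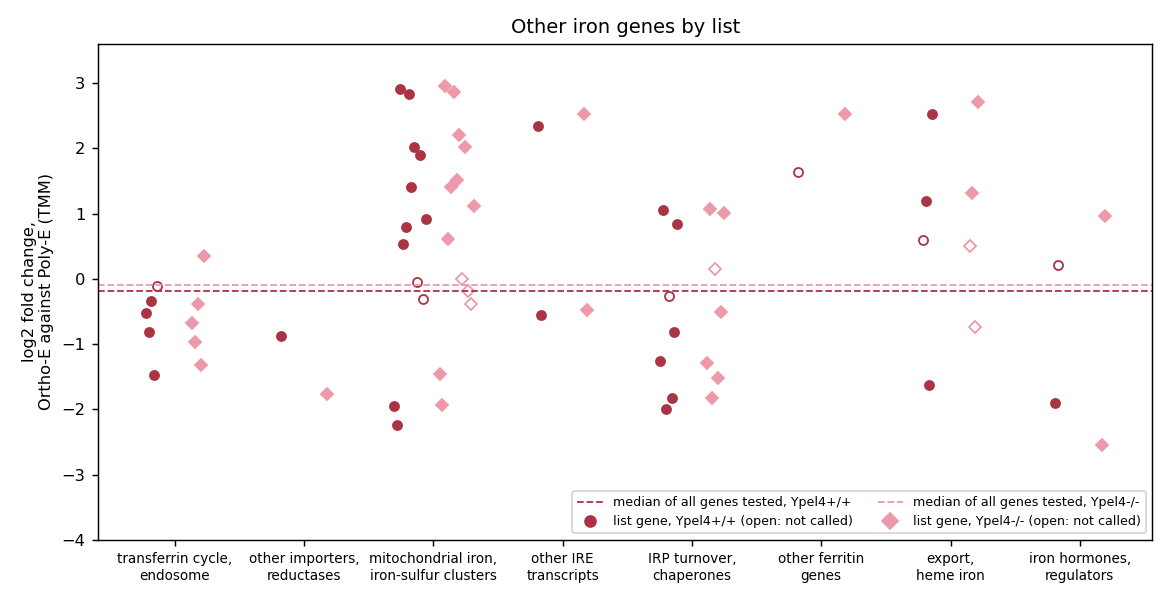
Log2 fold change, Ortho-E against Poly-E on the TMM scale, of the tested genes of the 8 pathway lists in both genotypes; a gene with 0 counts in a group is left out. Mitochondrial iron genes lie on both sides of 0, among them *Slc25a28* (-1.95) and *Iscu* (2.91) in *Ypel4*+/+ mice. In that genotype 7 of the 13 genes called higher hold a larger mean share of library totals, which was not tested.

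Over the 16 libraries, which fall into 2 populations, log2 levels of *Tfrc* ran with those of *Slc25a37* (Pearson's r = 0.994) and *Ncoa4* (0.986) more than with *Fth1* (0.359). After the mean of each group was taken out, *Fth1* and *Ftl1* still varied together (r = 0.945), as did *Tfrc* and *Slc25a37* (0.792), while *Slc11a2* and *Fth1* varied oppositely (-0.724). Among 4835 genes of at least 10 CPM, the deviations most like those of *Fth1* were *Arpc3* (0.983), *Bsg* (0.977), *H3f3a* (0.971), *Rps26* (0.969) and *Fbxl19* (0.965). By level, *Arpc3* (0.944), *Aqp1* (0.941), *Bsg* (0.937), *Eral1* (0.919) and *Rpl7a* (0.917) were most like *Fth1*, and *Dcun1d1* (0.998), *Pabpc1*, *Fcho2*, *Rbm39* and *1700020I14Rik* (each 0.997) most like *Tfrc*. The deviations most like those of *Tfrc* were *Ankrd61* (0.923), *Ttc14* (0.885), *Pcyt1b* (0.883), *Pabpc1* (0.882) and *Teddm2* (0.870). These are descriptions across 16 libraries that share replicate numbers and depth, with no test.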

How the data were processed

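RNA of 16 libraries had been sequenced after TruSeq preparation, which does not mark strand. The authors aligned the reads with nf-core/rnaseq to GRCm38, and deposited counts of read pairs per gene from featureCounts 1.6.4 with GENCODE M21, unstranded, without reads that mapped to several places or overlapped several genes; the submitters' processing notes name these versions. The titles of the samples gave group and replicate.

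Genes reaching 10 counts in sum across a fit were tested by edgeR 4.0.16 in R 4.3.3 (quasi-likelihood, robust, TMM), with Benjamini-Hochberg adjustment over all genes tested and a threshold of 0.05. Standard errors are the fold change over the root of F. Fits used the 8 libraries of a comparison, and all 16 for the interaction. Ratios took counts plus 0.5 per length and an exact permutation test in scipy 1.17.1. Alternatives were DESeq2 1.42.0, its size factors, library totals, filterByExpr, no filter, all 16 libraries, globin genes left out, a replicate block, a term for replicates 1 and 2 against 3 and 4, and each library left out. Fits of replicates 1 and 2 alone and 3 and 4 alone were chosen after seeing the data. The fits were tested on simulated data. IREs and copies (blastn 2.17.0) were searched in GENCODE M21. Besides the 10 genes, the text names by rule *Ypel4*, the genes of each list with the largest rise and fall called in both genotypes, uncalled or untested list genes it counts, genes named Fth or Ftl, and the 5 genes most like *Tfrc* and *Fth1* in log2 CPM (prior count 2). *Tfr2*, *Fbxl5*, *Slc25a28* as a single gene, *Gm6768* and the genes called between genotypes were named after their values were seen. Some genes that the rule names are not reported here. The 10 genes and the lists were chosen with earlier results of these data known.

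Whether numbers pair the libraries was checked by the correlation of deviations from group means over 4835 genes. Same-numbered libraries of both populations had 0.487 to 0.651 in *Ypel4*+/+ mice, with 4 of 4 pairs over a threshold of 0.1. In *Ypel4*-/- mice they had 0.0859 to 0.565, with 3 of 4 over it. In *Ypel4*+/+ mice 4 of 4 were most like the library of their own number, and in *Ypel4*-/- mice 3 of 4. These libraries share the number read as the mouse, which the labels do not explain. For Poly-E libraries of different genotype that share a number, the values were 0.233 to 0.642, each over the threshold of 0.1. Libraries with different numbers reached 0.601, however, and only 1 of 4 was most like the library of its own number. The numbers were thus not shown to pair these libraries. The corresponding Ortho-E values were -0.135 to 0.339, with 3 of 4 over the threshold and 2 of 4 most like their own number. Pairing was not shown for these either. A block by number was an alternative only, and the main fits held none. Depth was 2670173 to 12451234 counts.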

Additional observations from a re-analysis of the deposited data

How the results depend on the processing

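With library totals in place of TMM, the Ortho-E against Poly-E log2 fold changes reversed for *Fth1* (-0.97 in *Ypel4*+/+, -1.06 in *Ypel4*-/-), *Ftl1* (-0.21, -0.37) and *Slc40a1* (-0.97, -0.94). Of 999 fold changes of the 10 genes under alternatives, 965 stayed on their side of the threshold with no called value changing sign (55 values not called either way did change sign), 22 lost the call, 6 gained it and 6 reversed. The genes called between genotypes were few and varied: in Poly-E 1, with 4 under no filter or a replicate block, 3 with all 16 libraries, with a term for replicates 1 and 2, or in replicates 3 and 4 alone, 2 with DESeq2, and 7 in replicates 1 and 2 alone; in Ortho-E 3, with 5 under no filter, 13 under a replicate block and 7 in either pair of replicates alone; for the interaction 0, with 1 under DESeq2 or the mouse as a replicate block. Leaving out 1 library gave 1 to 2, 3 to 4 and 0 to 1. None of the 10 genes was called between genotypes in any of these. The replicate block changed no call of the 10 genes beyond that of *Fth1* in *Ypel4*+/+ mice. *Ireb2* in *Ypel4*+/+ mice was called in 10 of 20 settings, *Slc40a1* in 17 and *Fth1* in *Ypel4*-/- mice in 13. The cause was not tested. Counts of *Aco1* in Ortho-E limit its fold, and translation was not measured.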
